A study of Mus musculus with 7 samples.

Results

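The genes described here are 9 genes of regulated cell death in the mouse small intestine. Ripk1, Ripk3 and Mlkl belong to necroptosis, Casp8 to death receptor apoptosis, Casp1 and Gsdmd to pyroptosis, and Bax, Bcl2l1 and Bbc3 to mitochondrial apoptosis. They were taken by their exact gene name from a table of counts for 38293 genes, in which each of the 9 had 1 row, and all 9 had enough reads to be tested. The libraries came from male C57BL/6NRJ mice that were 8 weeks old and housed individually. The mice were acclimatized for 1 week on a high-fat, low-calcium AIN93G diet with 40% of its energy from fat. For the next 2 weeks, 4 mice kept the diet with normal cystine (0.38%, normal cys) and 3 mice ate the same diet with low cystine (0.08%, low cys), in which the added L-cystine was replaced by alanine. Each library is 1 mouse, and its RNA came from scrapings of the ileum, which hold epithelium and lamina propria but no muscle layer. The comparison of the diets asks whether less dietary cystine went with other transcript levels of the cell death machinery.

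The gut epithelium is renewed continuously, and its cells can die in several regulated ways. In apoptosis, caspases take the cell apart and its membrane stays closed, and the start is either a death receptor that activates caspase 8 or the BCL2 family at the mitochondrion. In necroptosis, RIPK1 and RIPK3 assemble and RIPK3 phosphorylates MLKL, which breaks the plasma membrane, while caspase 8 holds this route back. In pyroptosis, inflammasomes activate caspase 1, which cleaves gasdermin D, whose fragment forms pores in the membrane. Much of this control acts on proteins through cleavage and phosphorylation, so mRNA levels describe the supply of the machinery and not its activity.

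The libraries held 19712355 to 22412703 counts in normal cys and 14888760 to 21942518 in low cys, and between 6.08% and 11.0% of the counts were mitochondrial. Epithelial markers were abundant in each library, with a summed level of 20858 to 31601 CPM (counts relative to the library's total, normalised by TMM) in normal cys and 12908 to 21215 CPM in low cys. The lowest value was that of the low cys library X23SI4, in which Fabp2, a fatty acid binding protein of enterocytes, was at 2970 CPM against 8650 to 19584 CPM in the other 6 libraries. Stromal markers summed to 4.11 to 8.93 CPM in normal cys and 11.8 to 18.6 CPM in low cys, and endothelial markers to 5.78 to 7.89 CPM and 8.31 to 11.8 CPM. For both sums each low cys library was above each normal cys library. Of the single genes only Col3a1 and Dcn were separated in this way. The other stromal markers and all the endothelial markers overlapped between the diets. Of the B and plasma cell markers, Jchain, the joining chain of secreted antibodies, was higher in each low cys library (124 to 198 CPM against 32.9 to 102 CPM), while Cd79a, Cd79b, Ms4a1 and Mzb1 overlapped between the diets. Smooth muscle markers summed to 35.7 CPM in the low cys library X26SI4 and to 2.01 to 12.95 CPM in the other 6, although the scrapings were taken without the muscle layer. The acinar marker Cela1 was at 4.49 to 5.31 CPM in normal cys and 3.47 to 4.25 CPM in low cys, and the acinar markers Pnlip and Prss2 were at 0. In such bulk samples fewer cells of a type and less RNA per cell cannot be told apart. No batch is named for the libraries.

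Compared per kilobase of exon, which makes genes of different length comparable, Gsdmd had the highest level of the 9 genes, with a mean of 224 ± 49.3 CPM per kilobase (SD, n = 7 libraries). Casp1 followed at 112 ± 15.1 and Casp8 at 68.4 ± 9.04 CPM per kilobase, and this order of 3 genes was the same in 7 of 7 libraries. Bax stood at 31.6 ± 4.31, Ripk3 at 20.4 ± 7.06 and Bcl2l1 at 15.1 ± 2.55 CPM per kilobase. Neighbours in this middle range changed places between libraries, since Bax was above Ripk3 in 6 of 7 libraries and Ripk3 above Bcl2l1 in 5 of 7. Ripk1 at 6.41 ± 1.01, Mlkl at 4.86 ± 1.89 and Bbc3 at 2.99 ± 0.499 CPM per kilobase were the lowest. Within this group Ripk1 was above Mlkl in 5 of 7 libraries and Mlkl above Bbc3 in 5 of 7. The length of Ripk1 counts all its exon bases, of which 34.3% overlap with Gm17084 on the same strand, so its level per kilobase is less certain. On this scale the mRNAs of Gsdmd, Casp1 and Casp8 thus stood above those of the necroptosis genes and of Bax, Bcl2l1 and Bbc3 in the means over all libraries. By CPM, Gsdmd was at the percentile 97.7 of the genes tested, Casp8 at 93.9, Casp1 at 92.9 and Bbc3 at 33.5.

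No member differed between the diets after correction for all genes tested. With edgeR's quasi-likelihood test and Benjamini-Hochberg adjustment, 0 of the 9 members had an adjusted p under 0.05, as had 0 of all 14869 genes tested (0.0%). DESeq2 and limma-voom with quality weights also gave 0 of the 9. At an unadjusted p under 0.05 by the same test there were 2 of the 9, Gsdmd and Bcl2l1, both lower in low cys, against 5.49% of all genes (817, of which 396 were higher and 421 lower). The same 2 members were those whose low cys libraries did not overlap with the normal cys libraries, which held for 6.83% of all genes. The estimates were below 0 for 7 of the 9 members, and the median log2 fold change of low cys over normal cys was -0.22 for the members and 0.01 for all genes tested. With 2 genes called of 9, nothing is read from the share itself. Without the low cys library X23SI4, without X26SI4 or without the normal cys library SI9 the unadjusted count was 1, and without the normal cys library X32SI4 it was 3, Casp8 being the added gene.

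**Figure D1:**
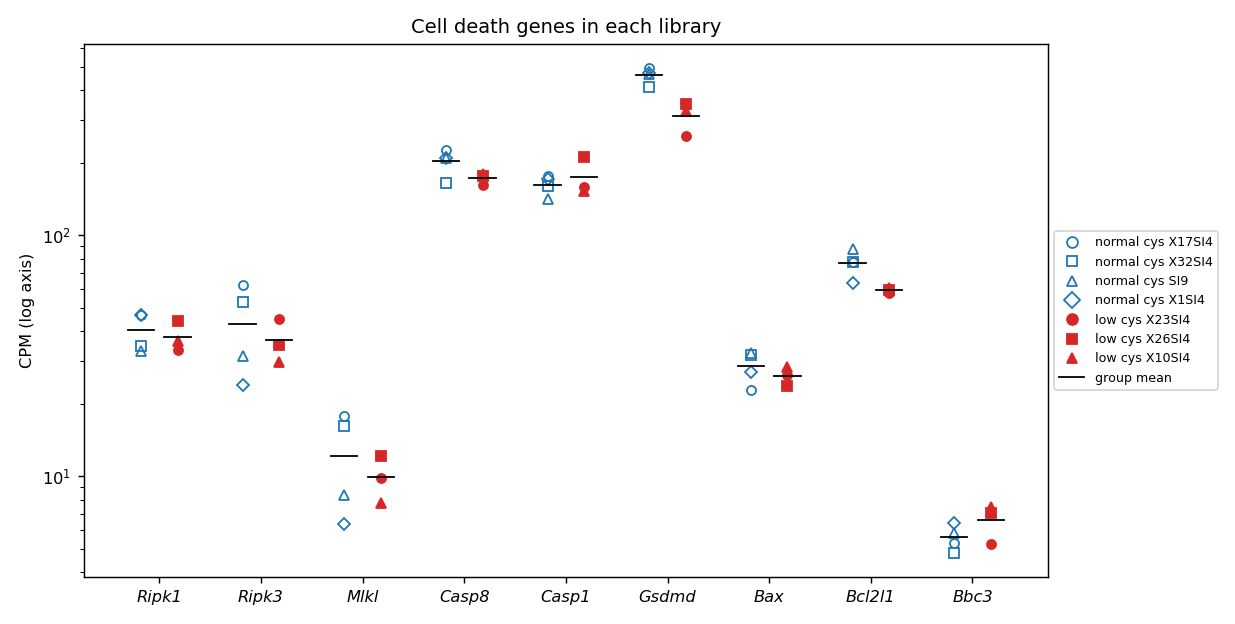
Level of each of the 9 cell death genes in CPM (log axis) in the 4 normal cys libraries (open blue symbols) and the 3 low cys libraries (filled red symbols), with group means as black lines and 1 symbol shape per library within a diet. Only for Gsdmd and Bcl2l1 do all red symbols lie below all blue ones, and Ripk3 and Mlkl spread most among the normal cys libraries.

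Gsdmd encodes gasdermin D, the protein that forms the membrane pore in pyroptosis. It lies at chr15:75862339-75867404 on the plus strand of GRCm38 (ENSMUSG00000022575). Its level was 494, 414, 468 and 471 CPM in the normal cys libraries X17SI4, X32SI4, SI9 and X1SI4, and 259, 351 and 330 CPM in the low cys libraries X23SI4, X26SI4 and X10SI4. Each low cys library was below each normal cys library, and the highest low cys value and the lowest normal cys value lay apart. The means were 462 ± 34.1 CPM (SD, n = 4) in normal cys and 313 ± 48.1 CPM (SD, n = 3) in low cys. This corresponds to a log2 fold change of -0.56 with a standard error of 0.15 and a 95% interval of -0.90 to -0.22, or 0.678 of the normal cys level. In edgeR's quasi-likelihood test the unadjusted p was 0.00462 and the adjusted p 0.794. The exact two-sided permutation test of the group means of log2 CPM gave p = 0.0286 for this gene, which is the smallest value that 3 against 4 libraries allow. The log2 fold change was -0.63 to -0.43 when each library was left out in turn, smallest in size without X23SI4, the library with the lowest epithelial markers.

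Gsdmd was also compared with the epithelium, since the summed epithelial markers had a lower mean in low cys, with overlap of the groups. Taken relative to the mean log2 level of 7 epithelial markers, Gsdmd was lower in each low cys library than in each normal cys library, with a difference of -0.32 on the log2 scale (exact permutation test, p = 0.0571). Relative to the 6 markers without Fabp2 the difference was -0.45 (exact permutation test, p = 0.0571). Both comparisons were chosen after the data had been seen. The low cys libraries had higher stromal and endothelial sums and higher Jchain. Smooth muscle markers were highest in X26SI4, and Cela1 was lower in low cys. The part of these in the difference of Gsdmd, or of Bcl2l1, was not tested.

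Casp1 encodes the inflammasome protease that cleaves gasdermin D (chr9:5298517-5307265, plus strand, ENSMUSG00000025888). It was at 177, 160, 142 and 172 CPM in the normal cys libraries in the same order, and at 159, 212 and 152 CPM in low cys. The groups overlapped, and the highest value was that of the low cys library X26SI4. The log2 fold change was 0.10 with a 95% interval of -0.25 to 0.45 (edgeR, adjusted p = 0.868), so a difference of the size estimated for Gsdmd in the downward direction lay outside the interval. Within each library, the log2 ratio of Gsdmd to Casp1 was 1.48, 1.37, 1.72 and 1.45 in normal cys and 0.71, 0.73 and 1.12 in low cys. The ratio was thus lower in each low cys library, by 0.66 on the log2 scale (exact permutation test, p = 0.0286, and 0.114 after Benjamini-Hochberg adjustment over the 4 ratios computed).

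Ripk3, the kinase that phosphorylates MLKL in necroptosis, was also the target of a qPCR assay in this study, as a marker of intestinal damage. For its damage markers, Ripk3 among them, the paper reports no significant difference between the diets in small intestine or colon. The primers are shown because they tell which part of the transcript that assay reads. They were found in exons 6 and 7 of 3 coding Ripk3 transcripts and enclose 213 bases of mRNA between chr14:55786583-55786901, on the minus strand of GRCm38.
Ripk3 forward primer: cgggaaacagtgtgtgacag
Ripk3 reverse primer: ctcggagacagcagcatcta
The reads of the whole gene (chr14:55784996-55788857, ENSMUSG00000022221) gave Ripk3 at 62.3, 52.96, 31.5 and 23.8 CPM in the normal cys libraries X17SI4, X32SI4, SI9 and X1SI4, and at 45.0, 35.2 and 29.7 CPM in the low cys libraries X23SI4, X26SI4 and X10SI4. The low cys values lay within the range of the normal cys values, which itself covered a 2.61-fold span. The log2 fold change was -0.22 with a standard error of 0.32 and a 95% interval of -0.95 to 0.51 (edgeR, adjusted p = 0.862). Without X17SI4 the estimate turned to 0.02.

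Mlkl encodes the pseudokinase that breaks the plasma membrane at the end of necroptosis (chr8:111311797-111338177, minus strand, ENSMUSG00000012519). It was at 17.7, 16.2, 8.36 and 6.35 CPM in normal cys and at 9.88, 12.2 and 7.73 CPM in low cys. As for Ripk3, X17SI4 and X32SI4 had the highest values and X1SI4 the lowest, and the low cys values lay between them. The log2 fold change was -0.29 with a standard error of 0.36 and a 95% interval of -1.11 to 0.53 (edgeR, adjusted p = 0.847). Ripk3 and Mlkl were the most variable members, with coefficients of variation over the 7 libraries of 34.6% and 38.8%, against 13.2% to 22.0% for the other 7.

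Ripk1 encodes the kinase that stands upstream of RIPK3 and of caspase 8 (chr13:34002363-34035170, plus strand, ENSMUSG00000021408). Its levels were 46.8, 34.7, 33.2 and 46.6 CPM in normal cys and 33.5, 43.9 and 36.4 CPM in low cys. The groups overlapped, and the log2 fold change was -0.09 with a 95% interval of -0.47 to 0.29 (edgeR, adjusted p = 0.894). Without X23SI4 the estimate was 0.004. Of its 6138 exon bases, 241 overlap with Serpinb6a on the opposite strand and 2108 with Gm17084 on the same strand, the latter a gene with at most 11 counts in a library. The strand setting of the counting is not given in the sources used here. Reads from these overlaps cannot be assigned with certainty, and the exons of the other 8 members overlap with no other gene.

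Ripk3 and Mlkl were the pair of members most alike across the libraries. Their log2 CPM had Pearson's r = 0.93 (exact permutation test, p = 0.00397, and 0.143 after adjustment over 36 pairs) and Spearman's rho = 0.96 (exact permutation test, p = 0.00278, adjusted 0.10) over 7 libraries. Leaving out X17SI4 and X32SI4, the libraries farthest from the median of Ripk3, gave r = 0.77. The second pair was Casp8 and Gsdmd, with r = 0.82 and rho = 0.86 (exact permutation tests, p = 0.0284 and 0.0238, adjusted 0.386 and 0.429), and r = 0.69 without X17SI4 and X1SI4. The most opposed pair was Casp1 and Bax, with r = -0.77 and rho = -0.79 (exact permutation tests, p = 0.0363 and 0.0480, adjusted 0.386 and 0.432), and r = -0.65 without SI9 and X26SI4. Of the 36 pairs, 18 had a positive r, the median r was 0.03, and 0 passed the adjusted threshold against 4 at an unadjusted p under 0.05 in the exact permutation test of r. The correlations pool both diets, and the pairs share the same 7 mice.

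**Figure D2:**
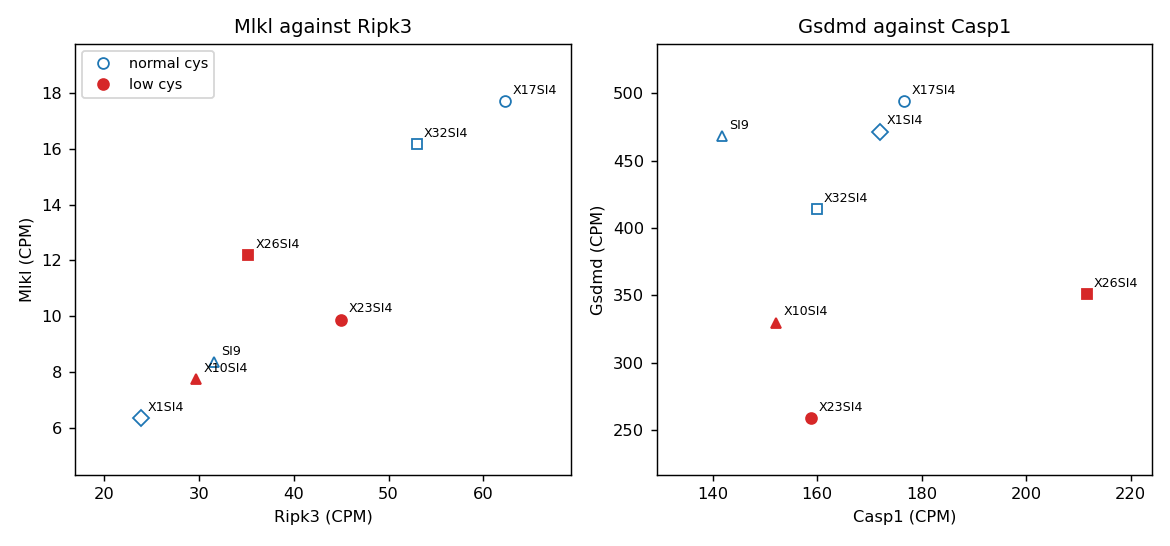
Left, Mlkl against Ripk3, and right, Gsdmd against Casp1, both in CPM, with 1 point per library, open blue for normal cys and filled red for low cys. On the left the points of both diets mix along 1 line from X1SI4 to X17SI4, while on the right all low cys points lie below all normal cys points in Gsdmd, X26SI4 at a Casp1 level above that of each normal cys library.

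In the normal cys mice, the summed levels of interferon response genes and of crypt proliferation markers had the order of Ripk3 and Mlkl. The sum of 9 interferon response genes was 1150 CPM in X17SI4, 921 in X32SI4, 686 in SI9 and 618 in X1SI4, and 548, 897 and 594 CPM in the low cys libraries X23SI4, X26SI4 and X10SI4. The sum rather than each gene had this order, since Irf1, Irf7, Ifit3 and Oas1a departed from it. The sum of 4 markers of crypt proliferation was 259, 193, 116 and 108 CPM in the same normal cys libraries. Of these markers, Pcna departed from that order, at 55.0, 42.9, 43.6 and 52.4 CPM. In low cys the proliferation sum was 292, 167 and 256 CPM, with its highest value in X23SI4, as for Ripk3. Its lowest value was in X26SI4, where Mlkl was highest. The interferon sum was lowest in X23SI4, where Ripk3 was highest. Birc5, an inhibitor of apoptosis protein of dividing cells, had the order of Ripk3 and Mlkl in normal cys, at 29.3, 24.4, 12.9 and 7.02 CPM. In low cys Birc5 was at 27.8, 17.6 and 24.7 CPM. Zbp1, an interferon-inducible sensor of nucleic acids that can activate RIPK3, was at 188, 55.7, 24.8 and 8.74 CPM in normal cys and at 37.7, 57.6 and 31.4 CPM in low cys. It thus had the same order in normal cys and in low cys its highest value in X26SI4, as Mlkl had, while Ripk3 was highest in X23SI4. Between the diets, the log2 fold change of Zbp1 was -0.71 with a standard error of 0.86 and a 95% interval of -2.68 to 1.25 (edgeR, adjusted p = 0.840). Markers of T cells and intraepithelial lymphocytes summed to 246 CPM in X17SI4 and to 94.2 to 150 CPM in the other 6 libraries. The granzymes Gzma (107 against 30.3 to 58.8 CPM) and Gzmb (60.1 against 16.1 to 22.2 CPM) made most of this gap. Cd3e, Cd3g, Cd8a and Itgae did not stand apart in this way. Cd8a was at 26.3 CPM in X17SI4 and 26.1 CPM in X26SI4, and Cd3g was highest in SI9. Of the 9 interferon response genes, Irf7, Isg15 and Oas1a had an unadjusted p under 0.05 in edgeR between the diets, all lower in low cys, against 5.49% of all genes, and the groups overlapped in the summed level. The part of the interferon response, of crypt proliferation or of lymphocytes in the levels of Ripk3 and Mlkl was not tested.

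The promoters of Ripk3 and Mlkl are shown because these genes were the pair of members most alike across the libraries. That likeness did not pass the adjusted threshold. Each covers 250 bases before to 50 bases from the RefSeq start (GRCm38.p6), is written in the direction of the gene and carries in capitals a match to GAAANNGAA, the core of the interferon-stimulated response element, where there is one.
Ripk3 promoter, chr14:55788808-55789107, minus strand: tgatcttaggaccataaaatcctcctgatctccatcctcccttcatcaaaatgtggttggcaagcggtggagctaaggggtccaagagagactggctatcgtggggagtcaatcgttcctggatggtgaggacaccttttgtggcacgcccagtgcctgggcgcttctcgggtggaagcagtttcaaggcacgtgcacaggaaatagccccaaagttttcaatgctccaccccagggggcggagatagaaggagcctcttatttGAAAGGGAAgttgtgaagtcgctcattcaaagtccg
Mlkl promoter, chr8:111338156-111338455, minus strand: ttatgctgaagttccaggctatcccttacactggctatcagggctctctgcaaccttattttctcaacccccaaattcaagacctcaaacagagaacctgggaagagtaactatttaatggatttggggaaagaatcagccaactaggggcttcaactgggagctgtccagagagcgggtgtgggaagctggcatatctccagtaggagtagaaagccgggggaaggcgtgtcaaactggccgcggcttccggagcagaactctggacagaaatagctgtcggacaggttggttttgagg
The match in Ripk3 begins 14 bases and ends 22 bases after the start. On either strand, GAAANNGAA was found in 8.56% of 32851 RefSeq promoters of this length, TTCNNNGAA (the gamma-activated sequence) in 8.30% and GGANTTTCC (an NF-kB site) in 1.25%. RefSeq promoters were matched for 8 of the 9 members, and besides Ripk3 the search matched only at the second start of Ripk1, with GAAATCGAA once and TTCCCGGAA 2 times, 1 of these overlapping with GAAATCGAA. The matches are descriptions of the sequence.

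Casp8 encodes the initiator caspase that starts death receptor apoptosis and restrains necroptosis (chr1:58795374-58847503, plus strand, ENSMUSG00000026029). It was at 227, 166, 210 and 210 CPM in normal cys and at 162, 177 and 180 CPM in low cys. Of its 50-base stretches, 4.37% also occur in Gm20257. The normal cys library X32SI4 lay among the low cys libraries, and the other 3 normal cys libraries above them. The means were 203 ± 26.1 CPM (SD, n = 4) and 173 ± 9.62 CPM (SD, n = 3), and the log2 fold change was -0.23 with a standard error of 0.14 and a 95% interval of -0.55 to 0.08 (edgeR, adjusted p = 0.794). The balance between necroptosis genes and caspase 8 was computed within each library. The log2 ratio of Ripk3 to Casp8 was -2.34 ± 0.706 (SD, n = 4) in normal cys and -2.25 ± 0.38 (SD, n = 3) in low cys, a difference of 0.09 (exact permutation test, p = 0.857, adjusted 0.914). For Mlkl to Casp8 the log2 ratios were -4.17 ± 0.789 and -4.13 ± 0.351, a difference of 0.04 (exact permutation test, p = 0.914, adjusted 0.914). Leaving out single libraries turned the direction of both differences, so no direction is given for them.

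Bcl2l1 encodes BCL-XL, which keeps BAX and BAK from opening the outer mitochondrial membrane (chr2:152780668-152831728, minus strand, ENSMUSG00000007659). Its level was 77.7, 77.8, 87.5 and 63.5 CPM in the normal cys libraries X17SI4, X32SI4, SI9 and X1SI4, and 57.5, 59.4 and 60.7 CPM in the low cys libraries X23SI4, X26SI4 and X10SI4. The low cys libraries were close to each other and each was below each normal cys library, X1SI4 being the nearest. The means were 76.6 ± 9.90 CPM (SD, n = 4) and 59.2 ± 1.59 CPM (SD, n = 3). The log2 fold change was -0.37 with a standard error of 0.13 and a 95% interval of -0.67 to -0.07, or 0.773 of the normal cys level. The unadjusted p of edgeR's quasi-likelihood test was 0.020 and the adjusted p 0.794, and the exact permutation test gave p = 0.0571. The unadjusted p in edgeR was 0.0566 without SI9, 0.0694 without X23SI4 and 0.0616 without X26SI4. Relative to the 7 epithelial markers the difference was -0.11 and the groups overlapped (exact permutation test, p = 0.429). Relative to the 6 markers without Fabp2 it was -0.25 with no overlap (exact permutation test, p = 0.0857). Both comparisons were chosen after the data had been seen, and their p-values were not adjusted.

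Bax encodes a pore-forming protein of the mitochondrial membrane (chr7:45461695-45466898, minus strand, ENSMUSG00000003873). It was at 22.7, 31.9, 32.5 and 27.0 CPM in normal cys and at 26.4, 23.6 and 28.3 CPM in low cys, with all low cys values inside the normal cys range. The log2 fold change was -0.13 with a 95% interval of -0.48 to 0.22 (edgeR, adjusted p = 0.839). The log2 ratio of Bax to Bcl2l1, a simple measure of the balance of promoting and opposing BCL2 proteins, was -1.77, -1.28, -1.43 and -1.23 in normal cys and -1.12, -1.33 and -1.10 in low cys. The low cys library X26SI4 lay among the normal cys libraries, and the difference of 0.24 did not pass the test (exact permutation test, p = 0.171, adjusted 0.343). Of the 50-base stretches of Bax, 8.51% also occur in the gene Gm45808, so reads from these could be shared.

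Bbc3 encodes PUMA, a BH3-only protein induced by p53 that sets BAX and BAK free (chr7:16309616-16318205, plus strand, ENSMUSG00000002083). It was the member with the fewest reads, at 101 to 134 counts a library. The levels were 5.28, 4.81, 5.84 and 6.40 CPM in normal cys and 5.22, 7.06 and 7.48 CPM in low cys. X26SI4 and X10SI4 had the highest values, but X23SI4 lay within the normal cys range, and the log2 fold change was 0.23 with a standard error of 0.21 and a 95% interval of -0.24 to 0.71 (edgeR, adjusted p = 0.807). Relative to the 7 epithelial markers each low cys library was above each normal cys library, with a difference of 0.48. The exact permutation test gave p = 0.0286, the smallest value that 3 against 4 libraries allow. Relative to the 6 markers without Fabp2 the groups overlapped, at a difference of 0.34 (exact permutation test, p = 0.143). Both comparisons were chosen after the data had been seen, and their p-values were not adjusted for the number of members compared.

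**Figure D3:**
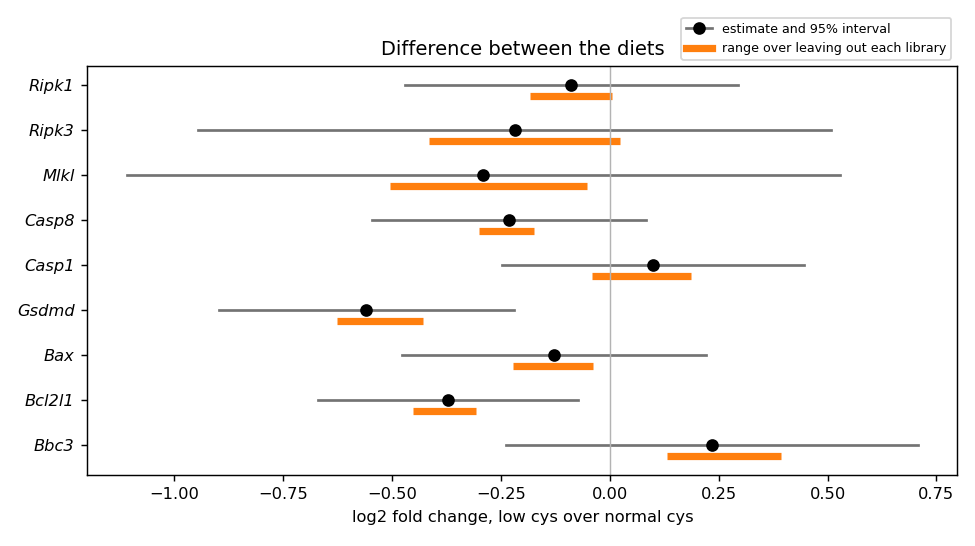
Log2 fold change of low cys over normal cys for each of the 9 genes (black points) with its 95% interval (grey lines) and, in orange, the range of estimates when each library is left out in turn. The intervals of Gsdmd, from -0.90 to -0.22, and Bcl2l1, from -0.67 to -0.07, lie below 0, and the other 7 include 0.

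The wider machinery of cell death was described by 95 further genes in 12 lists, of which 86 had enough reads to be tested and the other 9 had too few. In edgeR, DESeq2 and limma-voom with quality weights, 0 of them had an adjusted p under 0.05. In edgeR, 3 had an unadjusted p under 0.05 and all 3 were lower in low cys, and 2 had low cys libraries that did not overlap with the normal cys libraries, against 5.49% and 6.83% of all genes. The median log2 fold change of the 86 was -0.11, with 32 estimates above 0 and 54 below. The unadjusted count was 0 without the normal cys library SI9, 0 without the low cys library X23SI4, 1 without X10SI4, 5 without X26SI4, 6 without X1SI4 and 8 without X17SI4. Over all genes this count also varied between the same fits, from 258 of 15076 genes without X23SI4 and 403 of 14742 without SI9 to 1763 of 14786 without X17SI4.

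**Figure D4:**
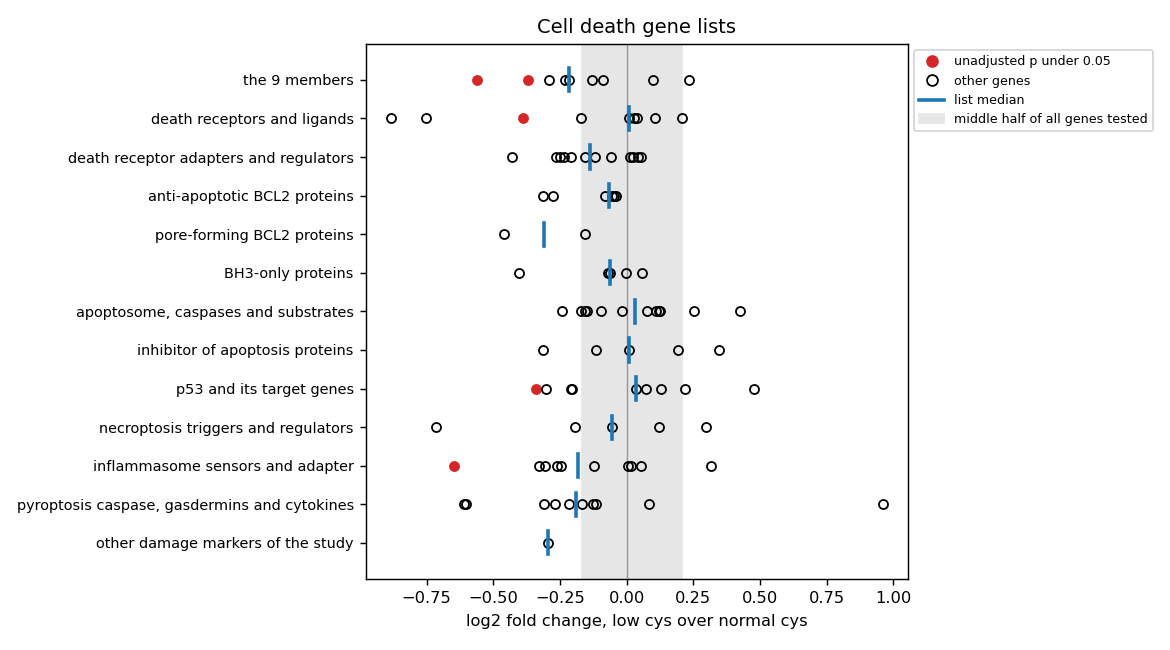
Log2 fold change of low cys over normal cys for each gene of the 9 members and of the 12 wider lists, with red points for an unadjusted edgeR p under 0.05, a blue bar at the list median and a grey band over the middle of all genes tested, from -0.17 to 0.21. Red points, 2 among the members and 3 in the wider lists, are all on the lower side.

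Among death receptors and their ligands, 1 of 9 tested genes had an unadjusted p under 0.05, and the list's median log2 fold change was 0.01. This gene was Tnfrsf1a, the main receptor of tumour necrosis factor, at 158, 148, 174 and 144 CPM in normal cys and 99.5, 123 and 136 CPM in low cys. The low cys libraries were all below the normal cys libraries, and the log2 fold change was -0.39 with a standard error of 0.14 (edgeR, unadjusted p = 0.0234, adjusted p = 0.794). Tnfsf10, which encodes the death ligand TRAIL, had a mean of 76.7 CPM in normal cys and 78.2 CPM in low cys (log2 fold change 0.03, standard error 0.19). Of the 12 receptor adapters and regulators, 0 had an unadjusted p under 0.05 in edgeR, 8 estimates were below 0 and the median was -0.14. Tradd, the adapter of the tumour necrosis factor receptor, was at 84.7 CPM in normal cys and 70.4 CPM in low cys (log2 fold change -0.27, standard error 0.13). Rbck1, a part of the linear ubiquitin ligase, was at 130 and 113 CPM (log2 fold change -0.21, standard error 0.14).

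In the BCL2 family outside the members, 0 of 6 tested anti-apoptotic genes, 0 of 2 pore-forming genes and 0 of 5 BH3-only genes had an unadjusted p under 0.05 in edgeR. Their medians were -0.07, -0.31 and -0.06 on the log2 scale. Of these 13 estimates 12 were below 0, while 51.2% of all genes tested had an estimate above 0. The count includes Bcl2a1a, Bcl2a1b and Bcl2a1d, at means of only 1.02, 1.05 and 1.72 CPM. Their estimates were -0.05, -0.05 and -0.08, with standard errors of 0.41 to 0.46. Of the 50-base stretches of Bcl2a1b, 79.2% occur in other genes, among them Bcl2a1d and Bcl2a1a, so these estimates are not independent. Mcl1, a short-lived protector of mitochondria, had a mean of 342 CPM in normal cys and 282 CPM in low cys (log2 fold change -0.27, standard error 0.18). Bcl2l2, another protector, was at 49.8 and 48.4 CPM. Bak1, the partner of BAX in opening the membrane, was at 215 and 193 CPM (log2 fold change -0.16, standard error 0.14), and per kilobase its mean over all libraries, 85.5 CPM per kilobase, was above that of Bax. Bok, a related pore former, ranged from 11.4 to 45.6 CPM in normal cys and from 16.4 to 23.1 CPM in low cys (log2 fold change -0.46, standard error 0.44). Pmaip1, which encodes the BH3-only protein NOXA, ranged from 68.9 to 118 CPM in normal cys and from 63.9 to 79.5 CPM in low cys (log2 fold change -0.40, standard error 0.22), and Bad at 34.6 and 33.1 CPM.

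Of the 12 genes of the apoptosome, the other caspases and their substrates, 0 had an unadjusted p under 0.05 in edgeR and the estimates were even, 6 above and 6 below 0 with a median of 0.03. Cycs, which encodes cytochrome c, was at 419 CPM in normal cys and 392 CPM in low cys, with 25.9% of its 50-base stretches shared with other genes. The 5 inhibitor of apoptosis genes had a median of 0.01 and 0 calls at an unadjusted p under 0.05 in edgeR. Xiap, which binds and blocks caspases, was at 145 CPM in both diets, and Birc2 was at 41.1 and 37.9 CPM. Besides Ripk3, the qPCR markers of damage were Birc5 and Ier3, an immediate early gene. Birc5 and Ier3 had log2 fold changes of 0.35 (standard error 0.43) and -0.29 (standard error 0.30), and in edgeR adjusted p-values of 0.848 and 0.821.

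Of 9 tested genes of p53 and its targets, 1 had an unadjusted p under 0.05 and the median was 0.03. This gene was Mdm2, the ubiquitin ligase that degrades p53, at 57.9, 61.0, 69.0 and 74.3 CPM in normal cys and 45.2, 60.7 and 49.6 CPM in low cys (log2 fold change -0.34, standard error 0.15, edgeR, unadjusted p = 0.0455, adjusted p = 0.794). Its groups overlapped, X26SI4 being above X17SI4. Cdkn1a, the p53 target that stops the cell cycle, was at 365, 376, 394 and 363 CPM in normal cys and 305, 346 and 321 CPM in low cys, with no overlap (exact permutation test, p = 0.0286), while its edgeR test gave an unadjusted p of 0.116 and an adjusted p of 0.794.

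Among 5 necroptosis triggers and regulators, 0 had an unadjusted p under 0.05 in edgeR and the median was -0.06. Ticam1, the adapter TRIF that links Toll-like receptors to RIPK3, was at 78.7 CPM in normal cys and 68.8 CPM in low cys (log2 fold change -0.19, standard error 0.13). Ppm1b, a phosphatase of RIPK3, was at 109 and 105 CPM.

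Of 10 tested inflammasome genes, 1 had an unadjusted p under 0.05 and the median was -0.18. This gene was Naip5, a sensor of bacterial flagellin, at 523, 644, 857 and 948 CPM in normal cys and 365, 565 and 494 CPM in low cys (log2 fold change -0.65, standard error 0.24, edgeR, unadjusted p = 0.0244, adjusted p = 0.794). The groups overlapped, and 36.8% of its 50-base stretches occur in other genes, among them Naip1, Naip2 and Naip6, so that its count is uncertain. Pycard, which encodes the adapter ASC that brings caspase 1 to the sensor, was at 180, 173, 105 and 78.0 CPM in normal cys and 189, 150 and 162 CPM in low cys (log2 fold change 0.32, standard error 0.28, edgeR, adjusted p = 0.804). Of the 10 further pyroptosis genes (a caspase, gasdermins and their cytokines), 0 had an unadjusted p under 0.05 in edgeR, 8 estimates were below 0 and the median was -0.19. The genes with the highest level per kilobase among these, the gasdermins Gsdmc4 and Gsdmc2, have 39.0% and 51.3% of their 50-base stretches in common with paralogs or other sequences. Gsdmc4 was at 91.7 ± 57.3 CPM (SD, n = 4) in normal cys and 79.0 ± 21.7 CPM (SD, n = 3) in low cys.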

How the data were processed

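Ileal scrapings were sequenced as stranded polyA libraries in 50-base read pairs. According to the study's methods, reads were trimmed with Trim Galore (version 0.6.5 in the submitters' processing notes), cleared of ribosomal RNA with SortMeRNA, mapped by STAR to the GRCm38 genome and assigned to genes of an Ensembl annotation by featureCounts. The authors deposited the result as raw counts per gene, 1 column per library. Of 38293 genes, 22796 had a count. Groups were taken from the labels.

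Genes were filtered with filterByExpr (minimum count 10, minimum total count 15), normalized by TMM and tested with edgeR (version 4.0.16, R 4.3.3) by the robust quasi-likelihood test without covariates, with Benjamini-Hochberg adjustment over all 14869 genes. CPM used the TMM library sizes, and log2 CPM a prior count of 2. Levels per kilobase used the exon length of each gene as deposited with the counts. GENCODE M21 (GRCm38), to which 36345 gene identifiers were matched, served for gene symbols and transcript sequences. Single values were compared by an exact two-sided permutation test over 35 placements of the libraries (scipy version 1.17.1). The script was tested on simulated data. At 101 to 9869 counts for a member in a library, counting error was small for all members but the least expressed, and the biological coefficient of variation of 25.5% limits the precision.

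DESeq2 (version 1.42.0), limma-voom with quality weights (limma version 3.58.1), DESeq2's size factors, a non-robust fit, other filters and leaving out each library were the alternatives. The members and the lists were chosen with earlier results of these data known. All members are named, and of each wider list the genes with an unadjusted p under 0.05 and, up to 2 genes a list, those with the highest level per kilobase. Zbp1 and Birc5 were added after their values were seen. A gene that the rule names is not reported here.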

Additional observations from a re-analysis of the deposited data

Results flagged for a closer look

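For each member, ratio and wider gene, the 4 normal cys values were ordered and the gap between an extreme value and the next was divided by their range. Of 99 values examined, 3 exceeded Dixon's critical value at the 95% level, and about 4.95 are to be expected by chance. None of the 9 members was among them. Il18, the cytokine that caspase 1 matures, was at 5.03 log2 CPM in X17SI4 and at 3.73 to 3.79 in the other 3 libraries (gap over range 0.948). Traf2, a signalling adapter of the tumour necrosis factor receptor, was at 4.35 log2 CPM in X17SI4 and at 4.71 to 4.78 in the others (gap over range 0.854). Gsdma, a gasdermin with little expression in these libraries, was at 1.57 log2 CPM in X1SI4 and at -0.05 to 0.14 in the others (gap over range 0.883).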

How the results depend on the processing

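The count of members with an adjusted p under 0.05 was 0 in every alternative run, while among all genes DESeq2 called 16, limma-voom with quality weights 4, and edgeR 1 without X32SI4. The unadjusted count was 2 members in each of the 6 alternatives that kept all libraries, and 1 to 3 when each library was left out. For Gsdmd the adjusted p was 0.192 in DESeq2 and 0.381 in limma-voom, and for Bcl2l1 0.698 and 0.381. For the wider genes, limma-voom with quality weights gave 12 of 86 at an unadjusted p under 0.05, beside 1850 of 14869 for all genes, and leaving out each library 0 to 8. Over these leave-outs the log2 fold change of Ripk1 ranged from -0.18 to 0.0038, that of Ripk3 from -0.42 to 0.023 and that of Casp1 from -0.042 to 0.19. The ratio differences (log2) ranged from -0.18 to 0.32 for Ripk3 to Casp8, from -0.25 to 0.31 for Mlkl to Casp8 and from -0.79 to -0.58 for Gsdmd to Casp1, where the smaller design cannot go below p = 0.0667 or 0.10 in the exact permutation test. Relative to the 7 epithelial markers, an alternative added after seeing the data, the differences turned to 0.17 for Ripk1, 0.11 for Ripk3, 0.064 for Mlkl, 0.026 for Casp8 and 0.13 for Bax, and relative to 6 markers without Fabp2 to 0.037 for Ripk1. The cause was not tested, and none of these directions had been called. No paired analysis was possible because the labels give the mice of the diets no shared numbers. With 3 against 4 mice, differences smaller than the intervals given could not be resolved.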
